A study of Tupaia belangeri with 6 samples.

Results

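The genes described are 7 of the 83605 features of the tree shrew annotation, namely the cathepsins CTSD, CTSB, CTSC, CTSS, CTSZ and CTSL and the cathepsin inhibitor cystatin C (CST3). They were taken by symbol, and each symbol stood on a single row in all 6 libraries. The choice was made with results of the same libraries known. The members were in effect chosen by their measured levels in the cell classes and by their differences between groups. The levels and differences below are therefore a description of genes selected on these values, also where an adjusted p over all features is given.

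Single-nucleus RNA sequencing was performed on the hippocampus of naturally aged tree shrews (TSs), with 1 library from each of 3 control TSs and 3 TSs with Alzheimer's-like pathology (ALP). The ALP TSs had been picked from a larger cohort for cognitive deficits, by slow passage through a pipeline maze, and the control TSs were healthy animals matched for age. The study describes no transgene and no drug treatment that set the groups apart. In its methods, tissue was taken after imaging under isoflurane. The study describes the pathology as arising with natural aging, and the animals were selected by behaviour. With controls of matched age, the comparison of groups does not show an effect of age. The age and sex of the animal behind each library are not given in the labels. Every comparison between ALP and control asked whether transcripts of these genes differed between the groups within a class of nuclei.

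Cathepsins are proteases of the lysosome, the acidic compartment in which proteins taken up by a cell or delivered by autophagy are degraded. CTSD is an aspartic protease, while CTSB, CTSC, CTSL, CTSS and CTSZ are cysteine proteases, and all are made as inactive precursors that are cleaved on the way to or within the lysosome. Cystatin C is a small secreted protein that blocks cysteine cathepsins outside and inside the cell, and in brain it is known as an abundant product of astrocytes and microglia. Lysosomal proteases of microglia take part in the breakdown of amyloid and of myelin debris.

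From 37603 barcodes, 28233 nuclei with more than 200 and fewer than 2500 genes and under 5% mitochondrial UMIs were kept, of which 14387 were from control and 13846 from ALP TSs. A UMI is a unique molecular identifier, so that amplified copies of 1 captured RNA count once. The kept nuclei held 62553881 of the 158150651 UMIs of all barcodes, so the values below do not cover whole libraries. Per library they held between 4159545 UMIs (Control 2) and 15412799 UMIs (Control 1). Clusters were named from marker genes, with the members and the other lysosomal genes left out of the clustering, and the names Micro (microglia-like, 1613 nuclei), Astro (astrocyte-like, 3242), Oligo (oligodendrocyte-like, 8664), OPC (oligodendrocyte precursor-like, 2719), Endo (endothelial-like, 503), Gran (dentate granule neuron-like, 2691), Pyra (pyramidal neuron-like, 1846) and InN (inhibitory neuron-like, 1870) stand for these classes. There were also 107 fibroblast-like and 171 ependymal-like nuclei, with as few as 10 and 16 in a library, and 4807 nuclei stayed unnamed. Among the classes compared between groups, the thinnest sums were those of Endo in ALP 1, with 27 nuclei, Micro in Control 2, with 44, Pyra in Control 3, with 47, and Gran in Control 2, with 60. The intergenic feature LINC-FRMD8-1 took 13.02% to 22.5% of the UMIs in the control libraries and 21.0% to 27.3% in the ALP libraries, and the part of this difference in the results below was not tested. Any 2 libraries shared between 2 and 12 barcodes, at most 0.310% of the smaller library.

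The 7 members differed widely in how often they were captured. In the kept nuclei CST3 gave 41942 UMIs, CTSD 3019, CTSZ 2263, CTSC 2214 and CTSB 393, whereas CTSS gave 44 and CTSL 1. CTSL, a cysteine protease of most lysosomes, had 0 UMIs in all 10 named classes, and 0 UMIs in Micro would still allow up to 3.799 CPM in Control 1, the deepest library, and up to 31.1 CPM in Control 2. The annotation also lists 4 features named as copies of CTSL, of which CTSLli3 gave 1442 UMIs and CTSLli2 405. How the authors' counting divided reads between these copies is not stated, so that the value of CTSL is uncertain. Intervals and floors of this kind cover counting error only.

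Of the cathepsins, CTSC, CTSD, CTSZ, CTSB and CTSS had their highest mean in Micro. Only for CTSC did the range in Micro not overlap that of the next class. CTSC, which activates the serine proteases of immune cells by trimming their N-terminus, was the most restricted, with 635 ± 169 CPM (UMIs per 1000000 UMIs of the class, mean ± SD, n = 6 libraries) in Micro. The next class, the fibroblast-like nuclei, had 43.1 ± 58.2 CPM, and the 8 UMIs behind that mean leave it imprecise. Endo, Astro and the ependymal-like nuclei followed at 17.8, 14.6 and 9.87 CPM, and the other 5 classes lay between 4.91 CPM in InN and 8.70 CPM in Pyra, neighbours whose ranges overlapped. Micro nuclei made up 5.71% of the kept nuclei but held 77.6% of all CTSC UMIs, between 44.0% (Control 2) and 82.9% per library.

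CTSD was also highest in Micro, at 280 ± 144 CPM, and Micro exceeded the next class in 6 of 6 libraries. Below it came the fibroblast-like nuclei (109 ± 115 CPM), Endo (93.5 ± 39.9 CPM) and Oligo (65.3 ± 36.4 CPM), 3 neighbours in the order whose ranges overlapped. The ependymal-like nuclei (51.3 CPM, from 18 UMIs), Astro, OPC, InN, Gran and Pyra formed the lower end, the last 5 at 39.2, 31.1, 30.7, 22.3 and 16.6 CPM. The ranges of neighbours in this order overlapped. In contrast to CTSC, only 23.3% of CTSD UMIs came from Micro, while Oligo, the largest class, held 26.5%.

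CTSZ, a carboxypeptidase of the same cysteine protease family, reached 241 ± 76.6 CPM in Micro and 178 ± 85.2 CPM in Endo, and these ranges overlapped. The ependymal-like nuclei came next at 49.6 ± 18.1 CPM, from 18 UMIs, with no overlap of the 6 values. This gap was narrow, as the lowest Endo library had 88.9 CPM and the highest ependymal-like library 80.7 CPM. All remaining classes lay between 34.9 CPM in Astro and 15.1 CPM in Gran. CTSB, an endopeptidase that is usually abundant in microglia, was low in every class. Its mean was 19.0 ± 11.1 CPM in Micro, from 55 UMIs, and 13.1 ± 8.07 CPM in Gran, from 79 UMIs, while Oligo, InN, OPC, Pyra and Astro lay between 3.94 and 5.47 CPM. The fibroblast-like nuclei (3 UMIs), Endo (2) and the ependymal-like nuclei (0) were too sparse to place.

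CTSS, the cathepsin that processes the invariant chain of MHC class II in antigen-presenting cells, had 23 of its 44 UMIs in Micro, which gave 10.96 ± 6.47 CPM there. The per-library counts in Micro were 5, 2 and 6 UMIs in Control 1 to 3 and 1, 4 and 5 UMIs in ALP 1 to 3. At such counts no difference between the groups was detectable.

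CST3 followed a different order from the cathepsins. It was highest in Endo (3534 ± 839 CPM), followed by Astro (2288 ± 1069 CPM) and OPC (1498 ± 773 CPM), and the order Endo above Astro above OPC held in 6 of 6 libraries although the ranges of neighbouring classes overlapped. The fibroblast-like and ependymal-like nuclei and Micro formed a middle group at 752, 613 and 574 CPM, with ranges that overlapped. Oligo stood at 376 ± 94.3 CPM, and below it the neuronal classes were set apart by a gap, since the lowest Oligo library (278 CPM) exceeded the highest Gran library (271 CPM). Gran, InN and Pyra had 198 ± 40.3, 185 ± 34.6 and 154 ± 41.8 CPM. Astro nuclei held 32.0% of the CST3 UMIs and Micro 3.66%. The Endo cluster also held mural markers such as RGS5, so that the Endo values are of a mixed vascular cluster.

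**Figure D1:**
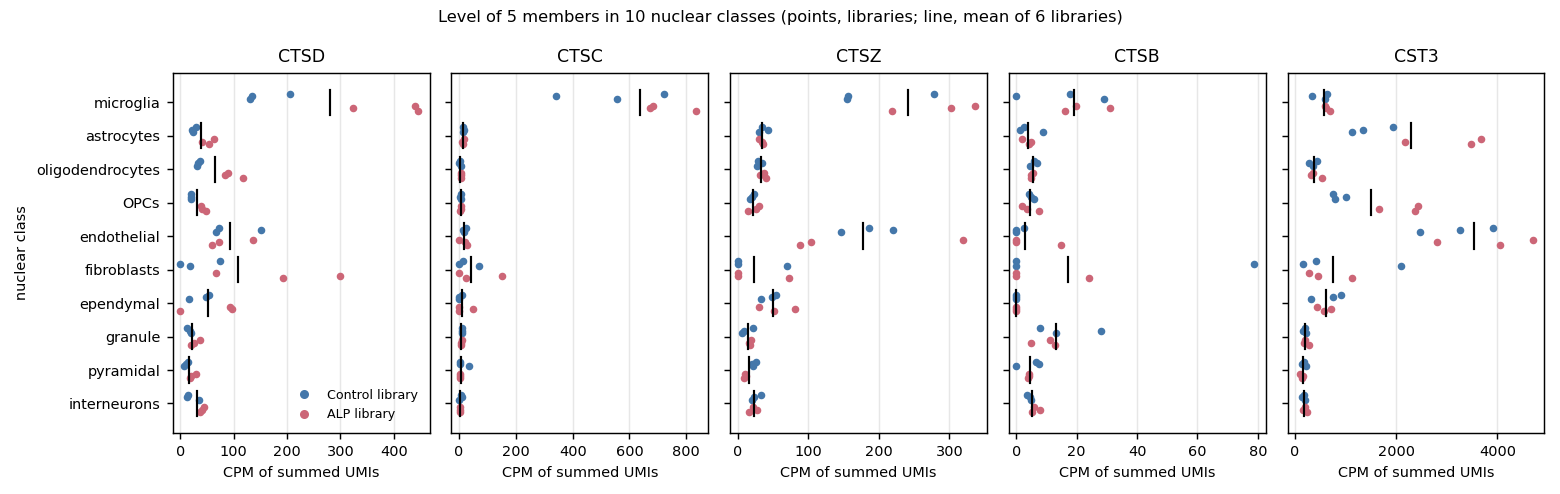
Level of CTSD, CTSC, CTSZ, CTSB and CST3 in CPM of summed UMIs (linear x axes, one per gene) in the 10 named classes (y axis, written out as microglia, astrocytes and so on). Points are the 6 libraries, coloured by group, and the line is their mean: CTSC stands out in Micro alone at 635 CPM, CTSZ in Micro and Endo, and CST3 in Endo, Astro and OPC.

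The share of nuclei with at least 1 UMI also set CTSC apart from CST3. Classes differed in depth, from a median of 1108 UMIs per nucleus in Micro to 4436 in Pyra, so that shares were also computed for a thinning of every nucleus to 500 UMIs, a depth that all kept nuclei reached. At that depth CTSC was expected in 29.2% of Micro nuclei and 0.260% of InN nuclei (55.1% and 2.00% unthinned). CST3 was expected in 54.2% of Astro, 42.8% of OPC, 26.3% of Micro and 8.08% of Pyra nuclei (86.0%, 75.4%, 51.4% and 40.8% unthinned). CTSD was expected in 15.7% of Micro and 0.902% of Pyra nuclei (31.9% and 6.93% unthinned).

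In droplet data, free RNA adds UMIs of other cell types to every nucleus, so the neuronal levels of the members were set beside those of 5 microglial markers that neurons should lack. As a percentage of the Micro level in the same library, the sum of the 3 neuronal classes stood at 1.03% ± 0.640 (SD, n = 6) for CSF1R, 0.373% ± 0.301 for PTPRC, 1.14% ± 0.522 for APBB1IP and 7.94% ± 6.83 for P2RY12. DOCK8, with 88 UMIs in Micro, stood at 0.923% ± 0.704 in the 5 libraries that had it. CTSC lay at 1.08% ± 0.634, within this span, and how much of its neuronal signal was free RNA was not tested. By these means, CTSZ (8.14% ± 3.14) and CTSD (9.83% ± 5.48) lay above 4 of the markers and near P2RY12. P2RY12 differed by group, with 7.07% to 18.6% in control and 2.47% to 3.06% in ALP libraries. In the control libraries CTSD (6.64% to 20.5%) and CTSZ (8.96% to 13.3%) spanned values like those of P2RY12. In the ALP libraries CTSD (5.16% to 8.83%) and CTSZ (4.85% to 6.03%) lay above all 5 markers. CST3 (31.0% ± 5.68) lay above all 5 markers, and its lowest library (25.3%) exceeded the highest marker value (18.6%, P2RY12 in Control 3). These markers gauge RNA from Micro alone, and CST3 was higher in Astro and OPC than in Micro in all 6 libraries, so the comparison does not bear on free CST3 RNA from those classes. CTSB stood at 31.2% ± 9.51 in the 5 libraries with a UMI in Micro.

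**Figure D2:**
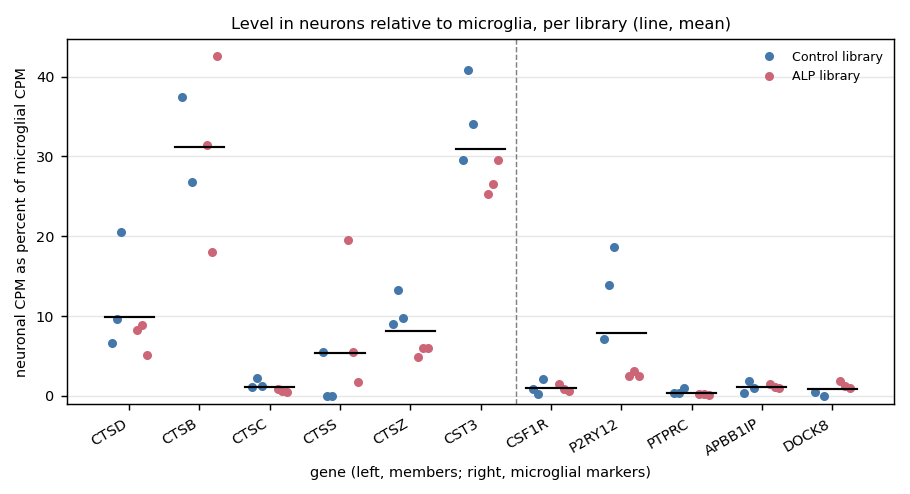
Neuronal CPM as a percentage of Micro CPM (y axis) for 6 members and 5 microglial markers (x axis), 1 point per library and the mean as a line. By mean, CTSC sits at 1.08% with the markers, CTSD and CTSZ near P2RY12, and CST3 at 31.0%, above every marker. In the ALP libraries CTSD and CTSZ lie above P2RY12.

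The genes most alike to each member over the 60 sums of 10 classes and 6 libraries were then listed, among 10443 features with at least 500 UMIs. The measure was Pearson's r of log2(CPM + 10), given as a description because sums of 1 library share its depth. CTSC was most like PTPRC (r = 0.92), NCKAP1L (0.91) and TIMD4 (0.91), of which the first is the pan-leukocyte phosphatase CD45. CTSZ was most like CTTNBP2NL (0.85), RASGRP3 (0.82) and TYROBP (0.82), the last being the adaptor through which TREM2 signals. CTSD was most like REL (0.80), LINC-MS4A15-4 (0.74) and M6PR (0.73), the small mannose 6-phosphate receptor that carries lysosomal enzymes. CST3 was most like NDRG2 (0.85), ARSL (0.82) and FERMT2 (0.82). CTSB was most like ZNF710 (0.70) and HIVEP3 (0.64). Among the members, CTSD and CTSC (0.68), CTSZ and CTSC (0.61) and CTSD and CTSZ (0.60) were the most alike, whereas CST3 and CTSC had r = 0.16.

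Between the groups, CTSD was higher in ALP in the most classes, and CST3 in OPC and Astro. The UMIs of each class were added up by library and fitted with edgeR's quasi-likelihood test over all features of the class, and a feature was called at an adjusted p (Benjamini-Hochberg) under 0.05 with a log2 fold change of more than 0.25 in either direction. Of 56 pairs of member and class, 29 passed the filter on low counts. A pair could pass through the group in which it was higher, so counts over the tested pairs are no support for a direction. Of these 29, 3 were called, namely CTSD in Micro and Oligo and CST3 in OPC, all higher in ALP. The share of all tested features called in either direction was 0.521% in Micro, 4.99% in Oligo and 1.56% in OPC. It was 0.158% in Astro, 1.65% in Gran and 0.0282% in InN, where 0 members were called. In Endo and in Pyra it was 0%, with 84 and 1699 features at an unadjusted p under 0.05, and DESeq2 called 1 and 65 features there. Since the members were selected with this contrast known, nothing is read from their count against these shares.

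In Micro, CTSD stood at 215, 157 and 149 TMM-scaled CPM in Control 1 to 3 and at 511, 352 and 516 in ALP 1 to 3. The groups did not overlap, and ALP 2 was the lowest of the ALP libraries. Expressed as a log2 fold change, the difference was 1.35 (SE 0.24, adjusted p = 0.0411). The share of Micro nuclei with a CTSD UMI, thinned to 500 UMIs, was 7.26% to 10.8% in the control and 18.9% to 24.6% in the ALP libraries, without overlap. Within Micro, 1 smaller cluster of 181 nuclei had a median of 3687 UMIs, against 1039 in the other, and more of the dentate granule markers (714 ± 125 against 97.0 ± 28.1 CPM). It held 4.07% to 20.5% of the Micro nuclei in the control and 13.9% to 18.9% in the ALP libraries. The ALP libraries lay above the control libraries in both clusters, 3.11-fold in the larger and 2.64-fold in the smaller, where Control 2 had too few nuclei. Without the smaller cluster, an alternative added after seeing the data, CTSD had a log2 fold change of 1.59 (adjusted p = 0.00449). The call was lost with marked doublets left out (adjusted p = 0.0564), without Control 3 (0.503), without ALP 1 (0.249) or ALP 3 (0.343), and with the replicate number as a block (0.216).

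In the same Micro sums the markers of several other cell types differed between the groups without overlap, though 0 of those tested were called. The marker lists not named here overlapped. The same lists were summed in every class, and most of those that overlapped are not named. Of all features tested in Micro, 9.11% had 3 ALP values above 3 control values. The share with 3 ALP values below was not computed for Micro. The 6 oligodendrocyte markers, with MBP and MOBP at 0, summed to 1537 to 1717 CPM in control libraries against 1300 to 1447 CPM in ALP libraries. The 5 border macrophage markers, with CD163 at 0, summed to 145 to 191 and 64.7 to 123 CPM, and the 6 endothelial markers, none at 0, to 83.1 to 95.0 and 46.2 to 70.1 CPM. The 4 neural progenitor markers, with NES at 0, were higher in ALP, at 41.5 to 43.8 against 45.8 to 62.2 CPM. The 12 microglial markers themselves overlapped between the groups (2648 to 4266 and 4058 to 4163 CPM). Their part in the CTSD difference was not tested.

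In Oligo, CTSD had 35.6, 34.9 and 30.7 TMM-scaled CPM in Control 1 to 3 and 95.1, 85.3 and 126 in ALP 1 to 3. The control libraries lay close together and far below the ALP libraries. The log2 fold change was 1.61 (SE 0.21, adjusted p = 0.00995), and the call was kept in 16 of 16 alternatives, with adjusted p between 2.77e-07 and 0.0145. In nuclei thinned to 500 UMIs, 1.48% to 1.85% of Oligo nuclei in control libraries and 4.36% to 5.96% in ALP libraries had a CTSD UMI. The Oligo nuclei were unevenly divided among 7 clusters. The cluster led by ATXN7L1-AS-4 and KLK6 held 7, 4 and 6 nuclei in Control 1 to 3 against 313, 111 and 502 in ALP 1 to 3, too few in control libraries to compare, and the one led by RNASE1 held 74, 36 and 96 against 489, 440 and 727. The cluster led by NINJ2 held 652, 2 and 86 nuclei in Control 1 to 3 against 11, 38 and 13 in ALP 1 to 3, and the one led by CREB5-AS-2 held 1006, 66 and 649 against 139, 363 and 176. Mean CTSD levels were higher in ALP in each of the 6 Oligo clusters other than the ATXN7L1-AS-4-led one, without overlap in 5, of which the NINJ2-led cluster had values from only 2 control libraries. The fold between group means ranged from 1.47 in the cluster led by MGAT4Cli1, whose ALP 1 library had 0 CTSD UMIs, to 3.08 in the cluster led by TNFAIP6. These clusters share the same 6 animals and are not independent of one another. The share of all features without overlap was not computed for single clusters. The 8 OPC markers, none at 0, summed to 1051 to 1516 CPM in control libraries against 882 to 1044 CPM in ALP libraries of Oligo, and their part in the result was not tested. The 12 microglial markers, with C1QC at 0, summed to 37.3 to 42.7 CPM in control libraries against 34.5 to 50.7 CPM in ALP libraries of Oligo.

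In the other classes tested, CTSD was not called but its 3 ALP values lay above its 3 control values each time. In Astro it stood at 28.1, 23.4 and 23.4 TMM-scaled CPM in Control 1 to 3 and 71.3, 42.8 and 61.4 in ALP 1 to 3 (log2 fold change 1.18, SE 0.27, adjusted p = 0.0665). In OPC it stood at 20.2, 21.5 and 21.8 in control libraries against 41.5, 43.0 and 51.4 in ALP (1.10, SE 0.27, adjusted p = 0.0607). Among the glial classes, the control libraries of OPC lay closest together.

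The neuronal classes gave lower CTSD levels and wider errors. Gran had 12.996, 19.2 and 19.6 TMM-scaled CPM in Control 1 to 3 and 40.0, 26.1 and 22.5 in ALP 1 to 3 (log2 fold change 0.86, SE 0.34, adjusted p = 0.208). Pyra had 13.8, 9.66 and 6.49 in control libraries against 33.1, 21.8 and 22.4 in ALP (1.13, SE 0.38, adjusted p = 0.240). InN had 14.3, 13.2 and 33.1 in control libraries against 49.8, 41.0 and 43.5 in ALP (1.11, SE 0.33, adjusted p = 0.125). Control 3 lay far above the other control libraries in InN, and without it CTSD was called there, at a log2 fold change of 1.70. In Gran the 6 oligodendrocyte markers, with MBP and MOBP at 0, were also higher in ALP, at 197 to 585 CPM in control libraries against 641 to 836 CPM in ALP libraries, and 1 of them was called. Lower in ALP in Gran were the 5 border macrophage markers, with CD163 at 0 (13.9 to 22.3 against 6.39 to 10.3 CPM). The 5 ependymal markers, none at 0, were also lower there (113 to 129 against 70.8 to 90.1 CPM). The 7 inhibitory neuron markers, with GAD2 at 0, were higher in ALP in InN (316 to 422 against 665 to 880 CPM) and lower in Pyra (19.8 to 28.8 against 7.57 to 15.1 CPM). The 6 pyramidal markers, none at 0, were higher in ALP in InN (114 to 126 against 138 to 151 CPM). The 12 microglial markers, with C1QC at 0, were lower in ALP in Pyra (40.7 to 72.1 against 22.2 to 27.1 CPM). The part of these markers in the CTSD values was not tested. CTSD in neurons stayed at 5.16% to 20.5% of the Micro level of the same library, and how much of it was free RNA was not tested.

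CTSD did not pass the filter in Endo, where 69 UMIs gave 73.4, 152 and 66.9 CPM in Control 1 to 3 and 137, 73.1 and 59.2 CPM in ALP 1 to 3. The groups overlapped, and single libraries gave only 4 to 30 UMIs.

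A count of values without overlap has a high background with 3 libraries a group. The share of tested features whose 3 ALP values all exceeded the 3 control values was 9.11% in Micro, 11% in Astro, 12.4% in Oligo, 9.15% in OPC, 4.95% in Endo, 11% in Gran, 10.9% in Pyra and 11% in InN. CTSD met this in 7 of 7 classes tested, which share the same 6 animals and are not independent of one another.

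**Figure D3:**
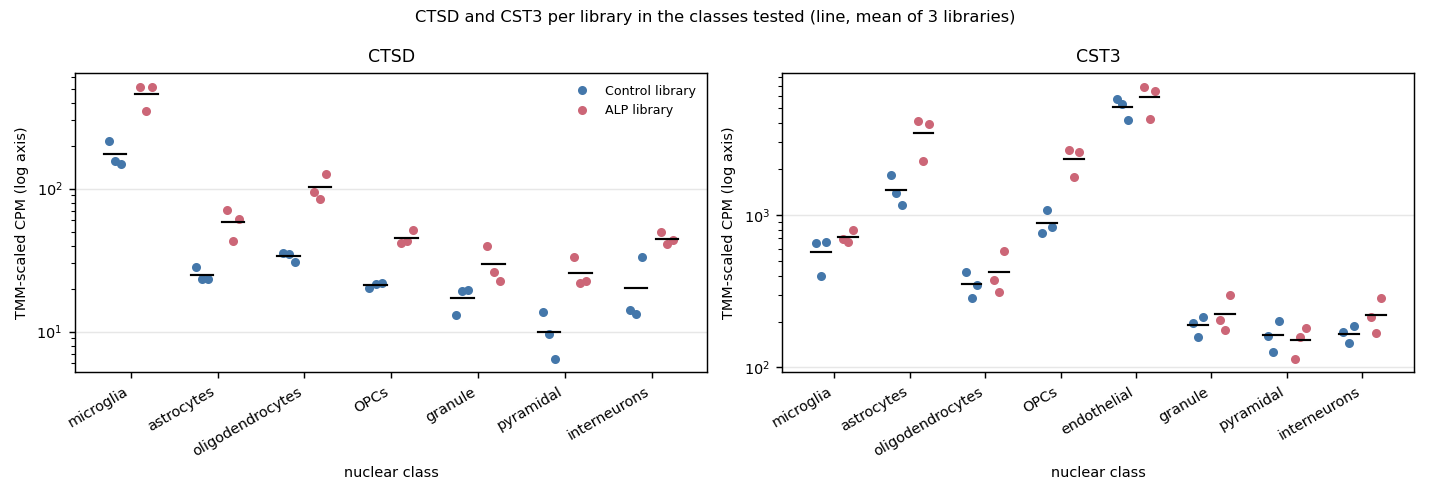
TMM-scaled CPM (log axis) of CTSD and CST3 in each library of the classes in which they were tested, with the group mean as a line. The ALP libraries lie above the control libraries in all 7 classes for CTSD, and only in Astro and OPC for CST3.

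Over all kept nuclei of a library, CTSD had 31.9, 28.6 and 30.4 TMM-scaled CPM in Control 1 to 3 and 69.9, 58.4 and 77.5 in ALP 1 to 3. In such a sum, more cells of a type and more RNA per cell cannot be told apart. The log2 fold change was 1.18 (SE 0.16, adjusted p = 0.0679), and 0% of 22749 features were called by edgeR, with 5323 at an unadjusted p under 0.05. DESeq2 called 1740 of them, CTSD among these. The share of features with 3 ALP values above 3 control values was 12.8%. Scaling to library totals without TMM factors lowered the log2 fold change of CTSD to 0.95 and called it. CST3 over all nuclei had 569, 654 and 557 TMM-scaled CPM in Control 1 to 3 and 679, 661 and 1009 in ALP 1 to 3, with ALP 2 barely above Control 2 (log2 fold change 0.40, SE 0.20, adjusted p = 0.264).

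CST3 rose in OPC. It stood at 754, 1082 and 833 TMM-scaled CPM in Control 1 to 3 and at 2638, 1761 and 2573 in ALP 1 to 3, without overlap. The log2 fold change was 1.39 (SE 0.18, adjusted p = 0.0179), kept in 15 of 16 alternatives, and lost with the replicate number as a block (adjusted p = 0.0955). The thinned share of OPC nuclei with a CST3 UMI was 29.8% to 33.2% in the control and 48.3% to 58.5% in the ALP libraries. The 4 granule markers, with DSP at 0, were higher in ALP in OPC, at 446 to 530 against 554 to 599 CPM. The 7 inhibitory neuron markers, with GAD2 at 0, were lower at 90.1 to 107 against 69.4 to 88.9 CPM, and so were the 5 ependymal markers, none at 0, at 24.7 to 42.2 against 11.8 to 22.0 CPM. Their part was not tested.

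In Astro, CST3 had 1816, 1379 and 1153 TMM-scaled CPM in Control 1 to 3 and 4100, 2240 and 3952 in ALP 1 to 3, also without overlap. The log2 fold change of 1.24 (SE 0.23) missed the threshold at an adjusted p of 0.0615, but 11 of 16 alternatives called it, with adjusted p up to 0.1000 over all of them. Each fit with 1 library left out was among these 11, at an edgeR p of 1.7e-10 to 1.0e-04, against 2.1e-04 with all libraries. Those calls came from fewer animals and are no measure of robustness. Astro comprised 2 clusters. In the larger, CST3 was at 1300, 912 and 968 CPM in Control 1 to 3 and 2748, 1637 and 2672 CPM in ALP 1 to 3. In the smaller, led by the intermediate filament gene GFAP and by CHI3L1, CST3 was higher but overlapped between the groups, at 4412, 3162 and 6884 CPM in control libraries against 6781, 4106 and 5903 CPM in ALP libraries. The GFAP-led cluster held 18.9%, 16.1% and 3.28% of Astro nuclei in Control 1 to 3 and 22.6%, 19.1% and 23.6% in ALP 1 to 3, so that its share was lowest in Control 3. CTSD also separated the groups in the larger cluster, at 22.1 ± 4.67 against 47.1 ± 6.71 CPM (control against ALP, n = 3 each). In the GFAP-led cluster it overlapped, at 76.4 ± 67.2 against 72.5 ± 27.0 CPM, from 65 UMIs in all. Control 1 to 3 had 39.7, 35.4 and 154 CPM there and ALP 1 to 3 had 95.8, 42.9 and 78.8 CPM. The overlap thus came through Control 3, which had 24 nuclei in that cluster. In Astro the 5 ependymal markers, none at 0, summed to 296 to 377 CPM in control libraries against 388 to 626 CPM in ALP libraries, and the 7 astrocyte markers to 4285 to 5068 and 5217 to 5582 CPM. Lower in ALP there were the 6 endothelial markers, none at 0 (49.2 to 63.2 against 22.9 to 38.6 CPM), the 4 dentate granule markers, with DSP at 0 (51.9 to 69.7 against 34.3 to 45.1 CPM), and the 5 lymphocyte markers, with CD3E and THEMIS at 0 (3.73 to 4.86 against 0 to 2.15 CPM). Their part in the CST3 values was not tested.

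The other classes gave smaller CST3 differences with overlapping groups. The log2 fold changes were 0.40 in InN, 0.28 in Micro, 0.24 in Oligo, 0.21 in Gran, 0.21 in Endo and -0.07 in Pyra, with adjusted p of 0.324 or more. As a description of these libraries with no test, since the classes were set side by side after their values were known, the log2 ratio of OPC to Oligo CST3 was 0.84, 1.91 and 1.26 in Control 1 to 3 and 2.81, 2.49 and 2.16 in ALP 1 to 3, without overlap. The mean ratio of Astro to Oligo was higher in ALP by 0.99, also without overlap, while the ratios of OPC and of Astro to Micro were higher by 1.02 and 0.86 with overlap. For CTSD, the ratio of Oligo to OPC was higher in ALP by 0.49 without overlap. The ratios of Oligo to Astro, InN and Micro were higher by 0.38, 0.33 and 0.15, all with overlap.

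**Figure D4:**
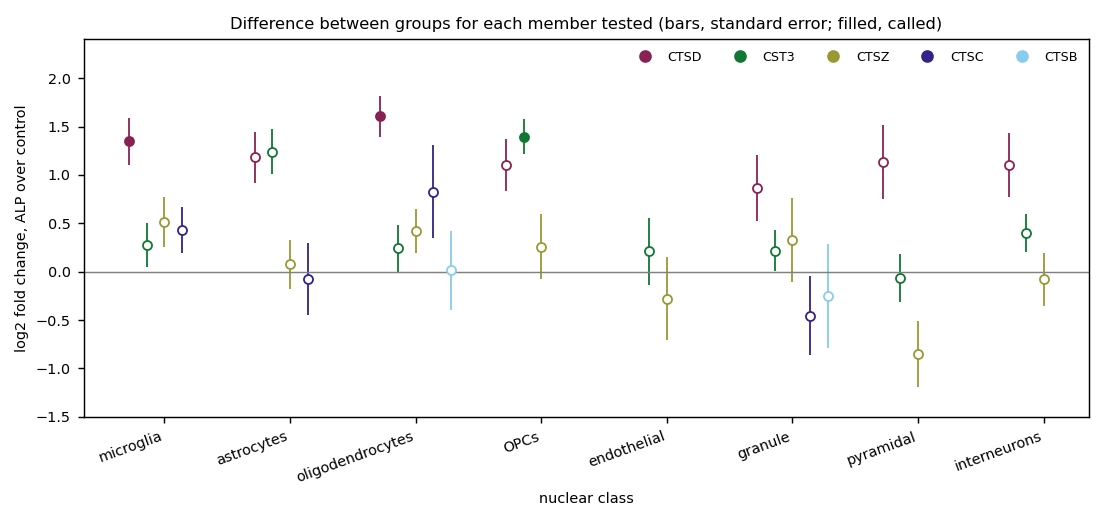
Log2 fold change of ALP over control (y axis) with its standard error for each member in the classes in which it was tested (x axis). Filled points are called: CTSD in Micro (1.35) and Oligo (1.61) and CST3 in OPC (1.39), while the open points of CTSZ, CTSC and CTSB run from -0.85 (CTSZ in Pyra) to 0.83 (CTSC in Oligo).

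The remaining cathepsins showed no called difference. CTSC in Micro had 756, 399 and 630 TMM-scaled CPM in Control 1 to 3 and 795, 730 and 969 in ALP 1 to 3, and the groups overlapped (log2 fold change 0.43, SE 0.24, adjusted p = 0.433). Control 2, with 44 Micro nuclei, was the lowest. Within the larger Micro cluster the groups did not overlap, at 819, 367 and 567 CPM in control libraries against 987, 836 and 1247 CPM in ALP libraries, and the same was true of CST3, at 673, 367 and 616 against 822, 753 and 883 CPM. In the smaller cluster both genes overlapped between the groups. Neither was called by edgeR in Micro without the smaller cluster (CST3 adjusted p = 0.330), and CTSC was called in 0 of 17 alternatives. Of all features tested in Micro, 9.11% had 3 ALP values above 3 control values, and this share was not computed for the larger cluster. In Oligo, where CTSC gave 73 UMIs in all, ALP lay above control with 5.95 to 9.21 against 0 to 5.62 CPM (0.83, SE 0.48, adjusted p = 0.346), a level near that in the neuronal classes.

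CTSZ in Micro had 291, 182 and 176 TMM-scaled CPM in Control 1 to 3 and 392, 328 and 253 in ALP 1 to 3, with overlap through Control 1 (0.51, SE 0.25, adjusted p = 0.369). In Pyra it was the only member whose ALP libraries all lay below the controls, at 12.5, 12.5 and 11.2 against 24.1, 19.3 and 19.5 TMM-scaled CPM. That log2 fold change of -0.85 (SE 0.34) had an adjusted p of 0.3001 by edgeR's quasi-likelihood test. The microglial and inhibitory neuron markers given above were likewise lower in ALP in Pyra, and their part in the CTSZ values was not tested. Of all features tested in Pyra, 8.72% had 3 ALP values below 3 control values. The CTSZ value in Pyra turned to 0.06 when the upper limit on genes per nucleus was dropped. In Endo, CTSZ had 271, 358 and 247 TMM-scaled CPM in control libraries against 468, 158 and 142 in ALP libraries, so that ALP 1 stood apart from the other ALP libraries. In Astro, Oligo, OPC, Gran and InN the log2 fold change of CTSZ lay between -0.08 and 0.42.

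CTSB was even between the groups over all nuclei, with 5.95, 6.04 and 6.55 TMM-scaled CPM in Control 1 to 3 and 6.07, 6.13 and 6.96 in ALP 1 to 3 (log2 fold change 0.05, SE 0.25). In Oligo the value was 0.02 (SE 0.41), and in Gran it was -0.25 (SE 0.54). The annotation lists an antisense feature of the gene, CTSB-AS-1, with 81 UMIs from control and 2 from ALP TSs. The use of strand in counting is not stated, so reads of the gene and of its antisense feature cannot be told apart. Summed as 1 feature, which was added after seeing the data, they gave a log2 fold change of -0.41 over all nuclei.

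The Micro nuclei were next divided by GPNMB, a lysosomal glycoprotein gene that marks the microglial state of amyloid and demyelination models. GPNMB itself rose in Micro, from 160 ± 55.7 to 720 ± 398 TMM-scaled CPM (log2 fold change 2.31, adjusted p = 0.0411), and was called in 12 of 17 alternatives, with adjusted p up to 0.883. Nuclei with a GPNMB UMI made up 2.43%, 11.4% and 6.098% of Micro in Control 1 to 3 and 10.0%, 17.3% and 15.9% in ALP 1 to 3, from 5 to 61 nuclei per library. Control 2, with 5 such nuclei, was left out of the paired comparison. In the other 5 libraries CTSD was 0.56 ± 0.74 (SD, n = 5) higher on the log2 scale in nuclei with than without a GPNMB UMI, higher in 4 of 5 libraries (exact sign-flip permutation test, two-sided, p = 0.1875). The largest differences were in the control libraries, at 370 against 201 CPM in Control 1 and 340 against 117 CPM in Control 3. ALP 1 to 3 had 371 against 449, 414 against 303 and 446 against 444 CPM. CTSC differed by 0.14 ± 0.33 and CTSZ by 0.12 ± 0.67, and CST3 by -0.18 ± 0.28 (exact permutation p of 0.3125 to 0.8125, and adjusted p of 0.469 to 0.812 over the 5 members compared). CTSB differed by 0.73 ± 1.08, from 10 UMIs in nuclei with GPNMB. The smallest p that 5 libraries allow is 0.0625, so this comparison could not pass a threshold of 0.05. Nuclei with a GPNMB UMI were also deeper, with medians of 1095 to 1899 UMIs against 859 to 1337. With every nucleus thinned to 500 UMIs, the log2 ratio of CTSD in microglia with against without a GPNMB UMI was 0.75. Between the clusters the order was the opposite, since the smaller Micro cluster, whose leading gene by fold was GPNMB, had less CTSD than the larger. It had 71.7 ± 29.2 CPM in 2 control libraries and 189 ± 58.4 CPM in 3 ALP libraries, where the larger had 172 ± 47.9 and 536 ± 119 CPM (n = 3 each). The microglial markers were also lower in the smaller cluster, at 1465 ± 227 against 4917 ± 1003 CPM. Marked doublets made up 10.5% of its nuclei, against 4.26% in the larger. The part of both in the lower CTSD was not tested.

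The difference of CTSD between the groups was also present among Micro nuclei without a GPNMB UMI. At their depth, with medians of 859 to 1337 UMIs in the libraries compared, a nucleus without a GPNMB UMI may still have expressed GPNMB. Among nuclei without such a UMI, CTSD had 201, 124 and 117 CPM in Control 1 to 3 and 449, 303 and 444 CPM in ALP 1 to 3, a ratio of means of 2.70 without overlap. Among nuclei with a GPNMB UMI it had 370 and 340 CPM in Control 1 and 3 and 371, 414 and 446 CPM in ALP 1 to 3, from 108 UMIs in all, so that the groups all but touched (ratio of means 1.15). These are values of the contrast on which the members were selected and carry no test. CST3 overlapped between the groups on both sides, with ratios of means of 1.02 with and 1.28 without a GPNMB UMI.

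**Figure D5:**
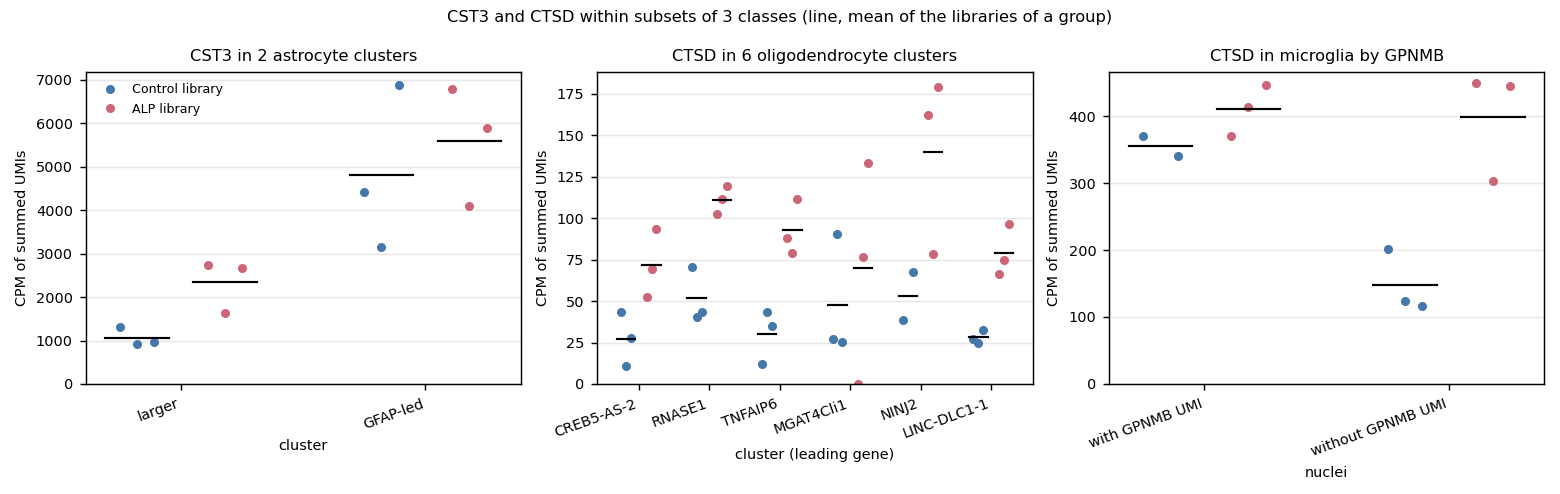
CPM of CST3 in the 2 Astro clusters, of CTSD in 6 Oligo clusters named by their leading gene, and of CTSD in Micro nuclei with and without a GPNMB UMI, 1 point per library and the group mean as a line (linear y axes from 0). CST3 separates the groups in the larger Astro cluster (912 to 1300 against 1637 to 2748 CPM) and overlaps in the GFAP-led one, and CTSD separates them in Micro nuclei without a GPNMB UMI.

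Other genes of the lysosome were taken from lists of 64 genes, of which 61 were among the features. These lists were chosen with earlier results of the same data known. Their counts and medians are a description, and nothing is read from them against the values over all features. In Oligo, 6 of the 41 tested were called, all higher in ALP, where 4.99% of all features were called. The largest was ARSA, the sulfatase that degrades the myelin lipid sulfatide, at 8.53 ± 1.82 TMM-scaled CPM in control libraries against 33.1 ± 12.4 in ALP libraries (log2 fold change 2.07, SE 0.37, adjusted p = 0.0171). The lysosomal membrane protein genes LAMP1 (1.49), LAPTM4B (1.36) and LAMP2 (0.99) also rose, as did the cysteine protease CTSF (1.22) and LGMN (0.85), the asparaginyl endopeptidase that cleaves cathepsin precursors. LAMP2 stood at 69.7, 52.3 and 60.3 TMM-scaled CPM in Control 1 to 3 and at 117, 130 and 127 in ALP 1 to 3. The median over the 41 tested was 0.22, beside 0.00 over all features of Oligo, and 13 of the 41 had an unadjusted p under 0.05, as did 2553 of all 11759 features.

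In OPC, 1 of the 33 other listed genes tested was called, LAPTM4B, with 29.7, 26.8 and 34.8 TMM-scaled CPM in Control 1 to 3 and 94.0, 55.3 and 111 in ALP 1 to 3 (log2 fold change 1.46, adjusted p = 0.0395), where 1.56% of all features were called. In Micro 0 of 31, in Astro 0 of 38, in Gran 0 of 35, in Pyra 0 of 39, in InN 0 of 36 and in Endo 0 of 2 were called, with 6, 7, 3, 5, 6 and 0 at an unadjusted p under 0.05. Of all features, 946 of 6530 in Micro, 1723 of 10145 in Astro, 1875 of 10359 in Gran, 1699 of 11698 in Pyra, 1903 of 10625 in InN and 84 of 1557 in Endo had such a p. The medians of their log2 fold changes lay between 0.11 in Pyra and 0.33 in Endo, the latter from 2 genes. The medians over all features lay between -0.01 and 0.01. The 4 transcription factors of lysosomal genes, TFEB, TFE3, MITF and TFEC, had 0 calls in any class, from 0 to 3 tested in each, and 1 unadjusted p under 0.05, in Pyra. Of the 5 other cystatins and protease inhibitors, none passed the filter in any class.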

How the data were processed

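Nuclei of hippocampus were profiled with the 10x Genomics 3′ v3.1 kit. The authors deposited counts of UMIs per feature and barcode for each library, made with Cell Ranger, given as version 3.1.0 in the submitters' processing notes and 6.1.2 in the matrix header. The TreeshrewDB annotation was used, and its build and the strand setting are not given in the sources used here. The name table of RefSeq (TupChi_1.0) held 6 of the 7 members.

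Nuclei with more than 200 and fewer than 2500 genes and under 5% mitochondrial UMIs were kept, scaled to 10000 UMIs, and clustered on 2000 variable genes without the listed genes (30 principal components, 20 neighbours, Leiden resolution 2) with scanpy 1.11.5 and leidenalg 0.10.2. Clusters were named from at least 3 markers. Clusters with over 15% of marked doublets stayed unnamed, and other marked doublets were kept. Where a library had 10 or more nuclei of a class, their UMIs were added up. Levels are UMIs per 1000000 of that sum (CPM). Group comparisons used edgeR 4.0.16 in R 4.3.3 (limma 3.58.1), with filterByExpr at a minimum count of 10, TMM factors, the quasi-likelihood test and Benjamini-Hochberg adjustment over all features tested. Single ratios used exact permutation tests over libraries (scipy 1.17.1). The scripts were tested on simulated data.

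Alternatives were DESeq2 1.42.0, other scaling factors, no filter on low counts, no upper limit on genes, marked doublets left out, resolution 1, the listed genes allowed in clustering, a replicate block and each library left out. Library totals without factors, Micro without its smaller cluster and CTSB summed with CTSB-AS-1 were added after seeing the data. Members and lists were chosen with earlier results of these data known. Named were all 7 members, up to 10 other listed genes called per class, and the 3 features most alike to each member by Pearson's r among those with at least 500 UMIs. One of these features is not reported here. GPNMB, CTSLli2, CTSLli3 and CTSB-AS-1 were named after their values were seen. Libraries are taken as separate animals, as the study describes. The edgeR p-values rest on a spread between libraries that is modelled over all features of a class, not on 1 gene alone. Some fits with a library left out gave lower p-values than the fit of all libraries, for example for CST3 in OPC. Counts of alternatives that kept or gained a call are therefore no measure of robustness.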

Additional observations from a re-analysis of the deposited data

Results flagged for a closer look

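Nuclei with at least 2500 genes were left out of the classes, 893 to 2208 per library, and entered only the alternative with no upper limit on genes. They were unevenly spread, with 1397 of 3011 barcodes in Control 2 against 893 of 5596 in ALP 3. They held 1723 of the 4745 CTSD UMIs and 647 of the 1040 CTSB UMIs of all barcodes. CTSD in these nuclei stood at 18.3, 13.5 and 13.5 CPM in Control 1 to 3 and at 23.4, 21.3 and 24.6 CPM in ALP 1 to 3, a log2 ratio of means of 0.61 without overlap. The other members overlapped between the groups there. This was a signal in data outside the main measurement, and the difference was not tested. The share of all features without overlap was not computed for these nuclei.

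CTSLli3, a feature named as a copy of CTSL, is no member, yet was called higher in ALP in Oligo. It had 14.0, 34.9 and 19.5 TMM-scaled CPM in Control 1 to 3 and 48.5, 48.6 and 38.3 in ALP 1 to 3, without overlap but with Control 2 close to ALP 3. The log2 fold change was 1.25 (SE 0.30, edgeR adjusted p = 0.0396), called in 9 of 16 alternatives with adjusted p between 0.00119 and 0.393. It was not particular to Oligo. Without a call, CTSLli3 was also higher without overlap in Astro (0.77), OPC (1.11), InN (1.72) and Pyra (1.75), and with overlap in Gran (1.46). The share of all tested features higher in ALP without overlap was 12.4% in Oligo, 11% in Astro, 9.15% in OPC, 11% in InN and 10.9% in Pyra. How reads were divided between the copies of CTSL is not stated. The gene was picked out after its values were seen.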

How the results depend on the processing

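Of 548 log2 fold changes of single features under the alternatives, 485 kept their direction and side of the threshold, 26 passed it anew, 6 lost it and 31 reversed. CTSD in Oligo was called throughout. In Micro, 1 member was called, and 0 under the replicate block or with marked doublets left out (0 to 1 with a library left out). Over all Micro features, the main fit called 34 of 6530, and each of these 2 alternatives called 0. In OPC 1 was called and 0 under the block, where 1 of all 8788 features was called, against 137 in the main fit. Against 0 in Astro, DESeq2 and no filter on low counts called 2, and library totals, resolution 1 and listed genes allowed in clustering 1 (1 to 2 with a library left out). Over all Astro features, the main fit called 16 of 10145 and DESeq2 219. No filter called 712 of 37549, library totals 153, and resolution 1 and listed genes allowed in clustering 27 each (19 to 236 with a library left out). Against 0 in InN, no filter and no upper limit on genes called 1 (0 to 1 with a library left out). Over all InN features, the main fit called 3 of 10625, no filter 1059 of 39043 and no upper limit 147 of 16099 (23 to 289 with a library left out). Against 0 over all nuclei, DESeq2, library totals and no filter called 1, as did each omission of a library. Over all features of all nuclei, the main fit called 0 of 22749, DESeq2 1740, library totals 702 and no filter 3386 of 54978. With a library left out, between 256 of 24933 and 3118 of 24392 were called. Nothing is read from these counts of members beside those of all features. The deviations of same-numbered libraries from their group means had correlations of -0.159 to 0.0482. Libraries of different number were not compared, and the labels do not mention pairing. Whether the numbers pair the libraries is therefore not known. Library totals moved the median of all features to as low as -0.28 (Pyra), and to -0.22 over all nuclei.

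The reversed values were not called. With library totals, CTSZ turned to -0.075 in Astro and -0.053 over all nuclei, and CTSB to -0.18 over all nuclei. With no upper limit on genes, CTSZ turned to -0.027 in Astro, 0.062 in Pyra and 0.070 in InN, CTSB to -0.10 in Oligo and CST3 to 0.074 in Pyra. CTSZ in Astro turned to -0.028 without marked doublets, and CST3 in Pyra to 0.11 with no filter. The log2 fold change of CTSB in Oligo-like nuclei turned to -0.095 with library totals, -0.00483 with DESeq2, -0.031 with upper-quartile factors, -0.00252 with listed genes allowed in clustering and -0.60 summed with its antisense. Over all nuclei CTSB turned to -0.031 with upper-quartile factors and -0.41 summed. Leaving out 1 library gave ranges across 0 for CTSC (-0.24 to 0.21) and CTSZ (-0.034 to 0.24) in Astro, CTSB (-0.19 to 0.077) and CST3 (-0.033 to 0.43) in Oligo, CTSZ in Endo (-0.92 to 0.048), CTSB (-0.89 to 0.012) and CST3 (-0.023 to 0.38) in Gran, CST3 in Pyra (-0.21 to 0.099), CTSZ in InN (-0.24 to 0.11) and CTSZ by GPNMB (-0.025 to 0.39). The causes were not tested. CTSS and CTSL were too sparse for any comparison.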

Other observations

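CTSLli2, also named as a copy of CTSL, had 289 of its 405 UMIs in Gran, at 47.8 ± 33.2 CPM (SD, n = 6), above the next class in 6 of 6 libraries. It varied widely between libraries of Gran, from 0.310 to 101 CPM, and Control 1 was the lowest. In the unnamed nuclei CTSB gave 53 UMIs in all. It stood at 8.999, 6.60 and 5.80 CPM in Control 1 to 3 and at 3.53, 3.15 and 3.55 CPM in ALP 1 to 3. The groups did not overlap, and the direction was opposite to that of CTSD in the classes in which CTSD was tested. In the unnamed nuclei CTSD gave 442 UMIs and overlapped between the groups. Its level there was 38.9 ± 11.2 CPM in the control and 49.9 ± 9.18 CPM in the ALP libraries (SD, n = 3 each). The share of all features without overlap was not computed for the unnamed nuclei. Over all kept nuclei, 12.8% of features had 3 ALP values above 3 control values. One unnamed cluster of 1072 nuclei, led by the haemoglobin gene HBG, had CST3 at 2680 ± 276 CPM in the control and 4165 ± 526 CPM in the ALP libraries (SD, n = 3 each), also without overlap. The largest unnamed cluster, of 1948 nuclei, went the other way. CST3 there had 631, 799 and 739 CPM in Control 1 to 3 and 478, 452 and 589 CPM in ALP 1 to 3. Among 9 unnamed clusters, CST3 was higher in ALP without overlap in 3, of which only the HBG-led one had values from 3 libraries of each group. The others were clusters with 58.1% and 92.9% of marked doublets, with values from 1 and 2 control libraries. In the largest Pyra cluster CST3 was likewise lower in ALP, at 152, 140 and 187 against 95.6, 105 and 133 CPM. It was higher without overlap in 1 of 3 Pyra clusters, with values from 2 control libraries. These cluster values carry no TMM factors, and without such factors the median log2 fold change over all Pyra features was -0.28. With TMM factors, CST3 over all Pyra nuclei overlapped, at -0.07. The share of all features without overlap was not computed for single clusters. These features were picked out after their values were seen.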
